A study of Mus musculus with 55 samples.

Results

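The AMPA and NMDA receptor subunit genes Gria1, Gria2, Gria3, Gria4, Grin1, Grin2a, Grin2b, Grin2d and Grin3a were examined in pyramidal neurons of mouse prefrontal cortex, cell by cell. They were taken by symbol, and all 9 were found among the 22800 genes of the count table. Each sample was the cytosol of 1 neuron, drawn into a patch pipette and sequenced. By their labels the neurons were D1 or D2 cells (the letters stand in this field for dopamine receptors), from mice without a knockout (wild type here) and from Fmr1-/y mice, which lack FMRP, an RNA-binding protein encoded on the X chromosome, and serve as a model of fragile X syndrome. There were 15 wild-type D1 cells (age 28 to 34 days), 26 wild-type D2 cells (29 to 35 days), 6 knockout D1 cells (31 and 32 days) and 7 knockout D2 cells (32 days) that passed the submitters' quality control. The sources used here give neither the strain nor how D1 and D2 cells were told apart. The side label splits the cells exactly as the D1 and D2 labels do, so that side and cell kind cannot be told apart, and genotype and age can hardly be told apart.

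The labels do not name animals. Each group was therefore treated as 1 sample, no test was made, and every SD and interval below describes these cells only and cells from 1 animal may resemble each other. Fmr1 had no read in any knockout cell (0 of 6 and 0 of 7) but had reads in wild-type cells, 8 of the 15 D1 and 13 of the 26 D2 ones. Total counts per cell ranged from 260943 to 10673072. Many cells gave few genes. Of the wild-type cells, 9 of 15 D1 and 13 of 26 D2 cells reached 4000 genes with a read, and of the knockout cells 6 of 6 D1 and 6 of 7 D2 cells did. These 34 cells are called gene-rich and the other 20 gene-poor, and each comparison is given in all cells and in gene-rich cells.

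Fast excitatory transmission in the cortex runs through AMPA receptors, channels assembled from the Gria subunits, and through NMDA receptors, which pass calcium when glutamate, a co-agonist and depolarization coincide. Gria2 normally makes an AMPA receptor nearly impermeable to calcium, because its transcript is edited. Every NMDA receptor needs Grin1, which pairs with Grin2 subunits that bind glutamate, and in the forebrain the Grin2b found early in life is joined by Grin2a as the cortex matures. FMRP binds the messenger RNAs of many synaptic proteins.

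The 9 genes descend from one family, and a stretch of the coding sequence shows both their kinship and how far they can be told apart in short reads. The stretch below encodes the longest run of amino acids that all 9 share, 7 residues, in the channel-forming part of the protein. For each gene, only the transcript with the longest coding sequence was used. The 21 bases are printed 5′ to 3′ on the coding strand, with the 13 positions that are identical in all 9 genes in capitals, from the GENCODE vM21 transcripts on GRCm38.
Gria1: TAcACaGCcAAccTgGCtGCc
Gria2: TAcACgGCtAActTaGCtGCc
Gria3: TAcACtGCaAAccTtGCtGCt
Gria4: TAcACtGCtAAtcTgGCtGCa
Grin1: TAcACtGCcAAccTgGCaGCc
Grin2a: TAcACaGCcAAccTgGCtGCc
Grin2b: TAcACtGCcAActTaGCcGCc
Grin2d: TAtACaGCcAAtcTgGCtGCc
Grin3a: TAcACaGCgAActTgGCtGCt
Even in this stretch the other genes differed from Gria2 at 3 (Grin2b) to 6 (Grin2d) bases, while Gria1 and Grin2a carry the same letters. The stretch lies at chr11:57283574-57283594 (plus strand) in Gria1, chr3:80702572-80702592 (minus) in Gria2, chrX:41620861-41620881 (plus) in Gria3, chr9:4462020-4462040 (minus) in Gria4, chr2:25297202-25297222 (minus) in Grin1, chr16:9653450-9653470 (minus) in Grin2a, chr6:135772247-135772267 (minus) in Grin2b, chr7:45854282-45854302 (minus) in Grin2d and chr4:49770473-49770493 (minus) in Grin3a.

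In these same transcripts, 1 per gene, the longest run of coding bases shared by any of the 16 AMPA or NMDA pairs was 50, between Gria3 and Gria4. It is shown in capitals with 15 bases on each side, because a read inside it would fit both genes.
Gria3: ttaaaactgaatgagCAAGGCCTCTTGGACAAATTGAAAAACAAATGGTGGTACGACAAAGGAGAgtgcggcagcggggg
Gria4: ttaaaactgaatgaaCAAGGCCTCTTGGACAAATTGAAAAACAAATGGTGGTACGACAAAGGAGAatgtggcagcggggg
These 80 bases lie in coding exons at chrX:41654832-41654911 (plus strand) for Gria3 and chr9:4432786-4432865 (minus strand) for Gria4, on GRCm38. Next in length in these transcripts were the 35 bases that Gria1 shares with Gria3 and with Gria4, and the 28 that Grin2a shares with Grin2d. Of all stretches of 50 bases in all transcripts of a gene, at most 15 (in Gria2) also occurred in another of the 9, so that a read of that length seldom fits 2 subunits. In the transcripts compared above, Gria2 shares at most 23 coding bases with another AMPA gene. The runs above therefore do not cover every shared stretch of 50 bases. More was shared with other annotated genes: 11.6% of such stretches in Grin2a, of which nearly all match Gm7328, 8.24% in Grin1, mostly its antisense gene Grin1os, and 7.57% in Grin2d, all in its antisense gene Gm45441. The other 6 genes shared under 1%. The sources used here do not say whether the counting used strand, so reads of Grin1 and Grin2d cannot be told apart from those of their antisense genes over 1307 and 643 exon bases.

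Among the AMPA genes, Gria2 (chromosome 3, 80681450 to 80802835, GRCm38) was read in the most cells over all groups, though Gria1 was read in 1 more of the wild-type D1 cells. Gria2 ranged from 0 to 3147 CPM (the share of a cell's reads, scaled so that all genes sum to 1e+06) in wild-type D1 cells with a median of 550, and from 0 to 3448 CPM in wild-type D2 cells with a median of 1530.1. In knockout D1 cells it ranged from 1276 to 3896 CPM around a median of 1808, and in knockout D2 cells from 53.2 to 4201 CPM around 2068. Both wild-type groups spread from cells without a read to cells at 3147 and 3448 CPM. The lowest knockout D1 cell, at 1276 CPM, lay inside both ranges, above the wild-type D1 median but below the wild-type D2 median. A read was found in 13 of 15 (86.7%, exact Clopper-Pearson 95% interval 59.5 to 98.3%) and 25 of 26 cells of the wild-type D1 and D2 groups and in all knockout cells. The intervals treat cells as independent draws. Floors cover counting error of reads only, and the reads are amplified. In gene-rich wild-type cells the mean Gria2 level was 1276 ± 1068 CPM (SD, n = 9) in D1 and 1966 ± 745 (n = 13) in D2 cells, and in the knockout 2159 ± 984 (n = 6) in D1 and 2292 ± 1624 (n = 6) in D2 cells.

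Gria1 (chromosome 11, 57011387 to 57330244), the subunit best known for insertion into synapses during plasticity, ranged from 0 to 1942 CPM in wild-type D1 cells around a median of 60.3. In wild-type D2 cells it ranged from 0 to 874 CPM around 199, in knockout D1 cells from 58 to 705 around 284, and in knockout D2 cells from 20.9 to 864 around 262. The highest value belonged to the gene-poor wild-type D1 cell 11, which had 1.82 CPM of Gria2 and 0 of Gria3 and Gria4. All 4 groups overlapped, and no knockout cell lacked a Gria1 read, against 1 of 15 D1 and 5 of 26 D2 cells of the wild type. Every gene-rich wild-type cell had a Gria1 read too (9 of 9 D1 and 13 of 13 D2). The wild-type cells without one were therefore all gene-poor.

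Gria3 (chromosome X, 41400854 to 41678601), an X-linked AMPA subunit, ranged from 0 to 1867 CPM (median 198) in wild-type D1 and from 0 to 1988 CPM (median 534) in wild-type D2 cells. The knockout D1 cells ranged from 287 to 2394 CPM (median 572) and the knockout D2 cells from 0 to 1102 CPM (median 488). Cells at 0 were found in each group but knockout D1, and the ranges overlapped throughout. It was detected in 10 of the 15 D1 (interval 38.4 to 88.2%) and 24 of the 26 D2 cells (74.9 to 99.1%) of the wild type.

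Gria4 (chromosome 9, 4417896 to 4796234), a subunit best known from interneurons, was the AMPA gene read in the fewest cells of each group. In the wild type 8 of 15 D1 and 9 of 26 D2 cells had a read, with medians of 18.7 and 0 CPM, and in the knockout 5 of 6 D1 and 5 of 7 D2 cells, with medians of 232 and 42 CPM. Its highest values were 1565 CPM in wild-type D1 cell 5, 426 in wild-type D2 cell 15, 903 in knockout D1 cell 1 and 193 in knockout D2 cell 1. Of the gene-rich cells 25 of 34 had a read, and of the gene-poor cells 2 of 20. The split is made by the number of genes read, which favours this direction for any gene. The interneuron gene Gad1 had a read in 4 of 15 and 11 of 26 wild-type D1 and D2 cells and in 1 of 6 and 4 of 7 knockout ones, and Slc32a1 in 0, 4, 0 and 1 cells of the same groups. The summed level of the 12 interneuron markers had its highest median, 409 CPM, in knockout D1 cells, where 5 of the 12 were read, and its lowest, 33.5 CPM, in wild-type D1 cells, where 11 were. Their part in the Gria4 levels was not tested.

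Among the NMDA genes, Grin2b (chromosome 6, 135713233 to 136173511) was detected in all 13 knockout cells and, in the wild type, in 14 of 15 D1 and 24 of 26 D2 cells. The wild-type cells without a Grin2b read were gene-poor, since 9 of 9 gene-rich D1 and 13 of 13 gene-rich D2 cells had one. Over all cells, Grin2b had the following levels. It ranged from 0 to 927 CPM (median 195) in wild-type D1, from 0 to 8321 CPM (median 402) in wild-type D2, from 348 to 701 CPM (median 450) in knockout D1 and from 216 to 1571 CPM (median 398) in knockout D2 cells. The knockout D1 cells lay closest together, at 511 ± 147 CPM (SD, n = 6). A single cell, wild-type D2 cell 21, held 42.1% of the summed CPM of its group, and the mean of the group was 761 CPM with it and 458 without it. The next highest wild-type D2 cell had 1501 CPM.

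Grin2a (chromosome 16, 9567898 to 9995560) ranged from 0 to 3009 CPM (median 35.7) in wild-type D1 cells and from 0 to 879 CPM (median 149) in wild-type D2 cells. In knockout D1 cells it ranged from 1.36 to 623 CPM (median 262) and in knockout D2 cells from 0.436 to 568.3 CPM (median 209). The wild-type D1 maximum again came from 1 gene-poor cell, cell 5, and without it the mean of that group was 69.1 rather than 265 CPM. Reads were found in 12 of 15, 18 of 26, 6 of 6 and 7 of 7 cells, in the same order of groups.

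Grin1 (chromosome 2, 25291181 to 25319187), the subunit that every NMDA receptor needs, was detected in fewer cells than Grin2b in both wild-type groups: in 9 of 15 D1 cells (interval 32.3 to 83.7%) and 20 of 26 D2 cells (56.4 to 91%). Its median was 15.3 CPM in wild-type D1 cells, with a highest value of 461 CPM, and 96.9 CPM in wild-type D2 cells, with a highest value of 721 CPM. In the knockout groups the values ran from 0.453 to 498 CPM around 212 in D1 cells, and from 0 to 918 CPM around 66.4 in D2 cells. In gene-rich cells the wild-type groups stood further apart than for any other subunit: the D1 cells had a mean of 58.9 ± 80.3 CPM (SD, n = 9) and the D2 cells 264 ± 140 CPM (SD, n = 13). The ranges still overlapped, since 1 gene-rich wild-type D2 cell had 16.1 CPM and the highest D1 cell 206 CPM. A cell without a read shows only that Grin1 was not detectable at its depth.

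The remaining NMDA genes were found in few cells. Grin2d (chromosome 7, 45831883 to 45878378), known from early development and interneurons, was rare: in the wild type 4 of 15 D1 and 4 of 26 D2 cells had it, and in the knockout 0 of 6 D1 and 3 of 7 D2 cells. For the knockout D1 cells the exact interval of the share of cells with a read reaches up to 45.9%. That interval holds the shares of wild-type D1 (26.7%) and knockout D2 cells (42.9%). If reads were independent, the summed knockout D1 counts would allow at most 3 reads in 32287626, or 0.0929 CPM. That floor is 140-fold below the level in the summed wild-type D1 counts (13 CPM). It is 116-fold below that in the summed knockout D2 counts (10.8 CPM). Wild-type D1 cell 1 gave 473 of the 724 Grin2d reads of its group (65.3%), and knockout D2 cell 2 gave 412 of 456 (90.4%). Without these cells, left out after their counts were seen, the floor was 60-fold and 14.6-fold below. Most cells of each group had none, so that these folds rest on the few cells with reads. They set no least difference between cells, since the amplified reads of 1 cell are not independent.

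Grin3a (chromosome 4, 49661611 to 49845744), a subunit that lowers the calcium flow of juvenile NMDA receptors, had a read in 2 of 15, 6 of 26, 1 of 6 and 1 of 7 cells. Its highest values were 2234 and 414 CPM in the gene-poor wild-type D2 cells 1 and 2, against at most 34 CPM in any gene-rich cell. The wild-type D2 mean was 105 CPM with cell 1 and 19.6 CPM without it. Of the NMDA genes outside the 9, Grin2c had a read in 1 wild-type D1 cell only, and Grin3b in 5, 15, 5 and 5 cells of the groups in the same order, with 1059 of its 3296 exon bases overlapping Tmem259 on the other strand.

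**Figure D1:**
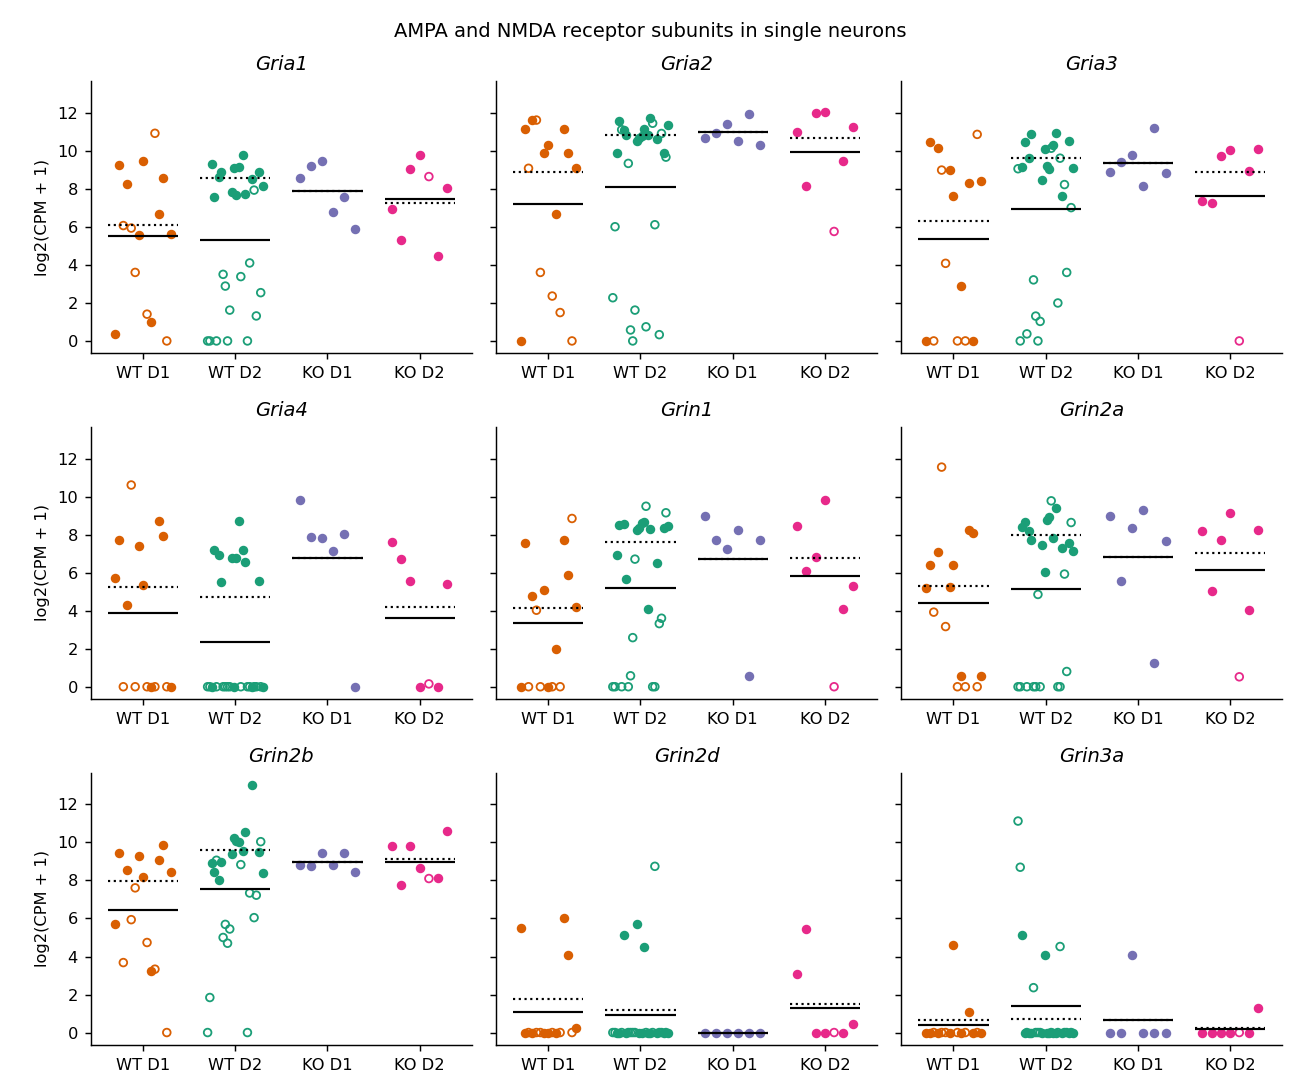
Level of each of the 9 subunits in every cell that passed quality control, as log2(CPM + 1) on the vertical axis, by group on the horizontal axis (15, 26, 6 and 7 cells). Filled points are gene-rich cells, open points gene-poor cells, solid lines the mean of all cells and dotted lines the mean of gene-rich cells; most wild-type values near 0 are open points, and Grin2d and Grin3a are at 0 in most cells.

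Levels of different genes were compared per length, as CPM per kilobase of merged exons. In gene-rich cells Gria2 came first in each group, at 82.1 ± 68.7 (SD, n = 9) and 126 ± 47.9 (n = 13) in the D1 and D2 cells of the wild type, and 139 ± 63.3 (n = 6) and 147 ± 104 (n = 6) in those of the knockout. Gria3 came next in each group and Gria1 after it. Gria2 exceeded Gria3 in 8 of 9, 9 of 13, 6 of 6 and 5 of 6 cells, in the same order of groups. The mean difference was 37.9 ± 43.5 and 27.7 ± 60.8 (SD) in the wild-type groups, where the neighbours thus do not differ beyond their spread, and 51.8 ± 26.5 and 83.5 ± 78.7 (SD) in the knockout groups, where the difference exceeds it. Gria3 and Gria1 did not differ beyond their spread in any group. In each group the mean per length of Gria1, Gria2 and Gria3 was above that of every NMDA gene, whereas Gria4 had rank 4 in the D1 groups and rank 7 in the D2 groups.

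Among the NMDA genes the order per length in gene-rich cells was Grin2b, Grin1, Grin2a in 3 groups, and Grin1, Grin2b, Grin2a in knockout D1 cells. Grin2b exceeded Grin1 in 9 of 9 wild-type D1 cells, by 11.2 ± 10.3 (SD) per kilobase, but in 7 of 13 wild-type D2 cells. Neighbours among these 3 genes otherwise did not differ beyond their spread. Grin2d and Grin3a were last in each group, at no more than 2.07 per kilobase. With the longest transcript in place of merged exons, a change that shortens Grin1 from 9700 to 4276 bases and Gria3 from 9859 to 5206 bases, Gria2 stayed first in gene-rich cells of each group but did not differ from Gria3 beyond the spread in any, with 43.4 ± 65.5 and 99.9 ± 112 (SD) in knockout D1 and D2 cells. With that length Grin1 came before Grin2b in wild-type D2 and both knockout groups, and before Gria1 in knockout D2 cells. The place of Grin1 and the gap between Gria2 and Gria3 therefore depend on the length used.

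**Figure D2:**
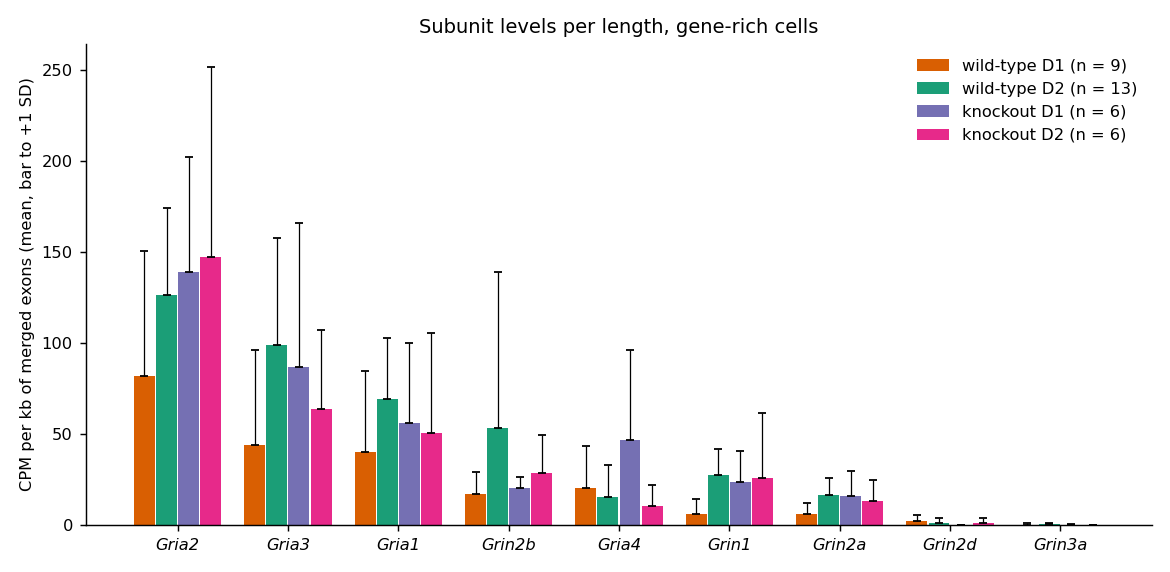
Mean CPM per kilobase of merged exons (vertical axis, bars from 0) of the 9 subunits in the gene-rich cells of the 4 groups, with lines to +1 SD over cells. Gria2 is highest in each group, from 82.1 in wild-type D1 to 147 in knockout D2 cells, and Grin2d and Grin3a are near 0.

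The make-up of the receptors was described by the share of Gria2 among the AMPA genes and of Grin2a in Grin2a plus Grin2b, per length, in cells with at least 10 counts of the set. In gene-rich cells the median Gria2 share was 41.7% and 46.1% in the D1 and D2 cells of the wild type and 43% and 50.8% in those of the knockout. Single cells ranged from 0 to 88.8%, 20.8 to 62.6%, 29.4 to 59.8% and 32.3 to 66.4% in the same order. The groups overlapped broadly, and their medians differed by less than the SD within any group.

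Grin2a made up a median of 28.4% and 36.9% of the pair in gene-rich wild-type D1 and D2 cells, and of 41.7% and 22.6% in the knockout ones. The share ranged from 0.193 to 49.2%, 2.56 to 61.3%, 0.273 to 65.5% and 7.11 to 66.4%. It was under 10% in 3, 2, 1 and 1 cells and over 50% in 0, 2, 2 and 1 cells, so that both extremes occurred in each group but wild-type D1. That exception depends on the length used: with the longest transcript, 1 gene-rich wild-type D1 cell was over 50%, at 53.5%. By age, the 8 gene-rich wild-type cells of 29 days had a median Grin2a share of 31.8% (6.97 to 60.9%) and the 4 of 30 days 32.7% (7.54 to 36.9%). The older ages held at most 3 gene-rich wild-type cells each. Stretches shared with other genes, 11.6% of those of Grin2a and 0.543% of those of Grin2b, were not taken out of the lengths. How reads there were counted is not given, and the effect on the Grin2a share was not tested.

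**Figure D3:**
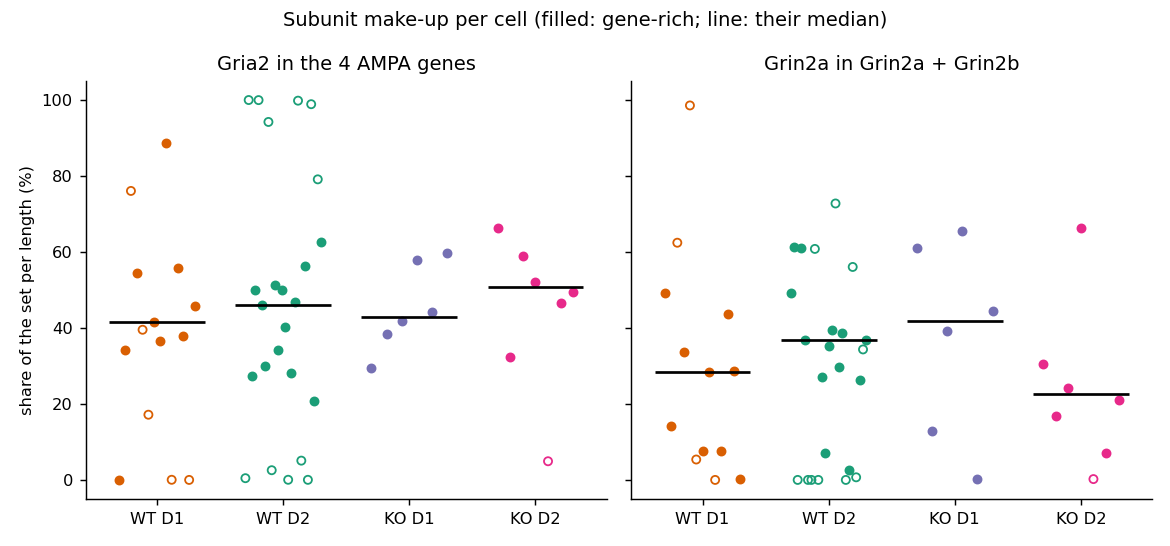
Share (%, vertical axis) of Gria2 among the 4 AMPA genes (left) and of Grin2a in Grin2a plus Grin2b (right), per length, in each cell with at least 10 counts of the set, by group. Filled points are gene-rich cells, with their median as a line (41.7 to 50.8% on the left, 22.6 to 41.7% on the right); open points are gene-poor cells, which reach from 0 to 100% on the left.

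Gene-poor cells often held 1 subunit almost alone. A single gene took over 75% of the summed level per length of the 9 in 10 of the 20 gene-poor and 1 of the 34 gene-rich cells, and its median share was 75.5 and 38.7%. That gene was Gria2 in 23 of the 34 gene-rich cells but in 5 of the gene-poor cells, where it was Gria1, Gria3 or Grin2b in 3 cells each and Grin3a or Grin1 in 2 each. The median number of subunits with a read was 7 in gene-rich cells of both wild-type groups, and 3.5 and 5 in the gene-poor wild-type D1 and D2 cells.

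**Figure D4:**
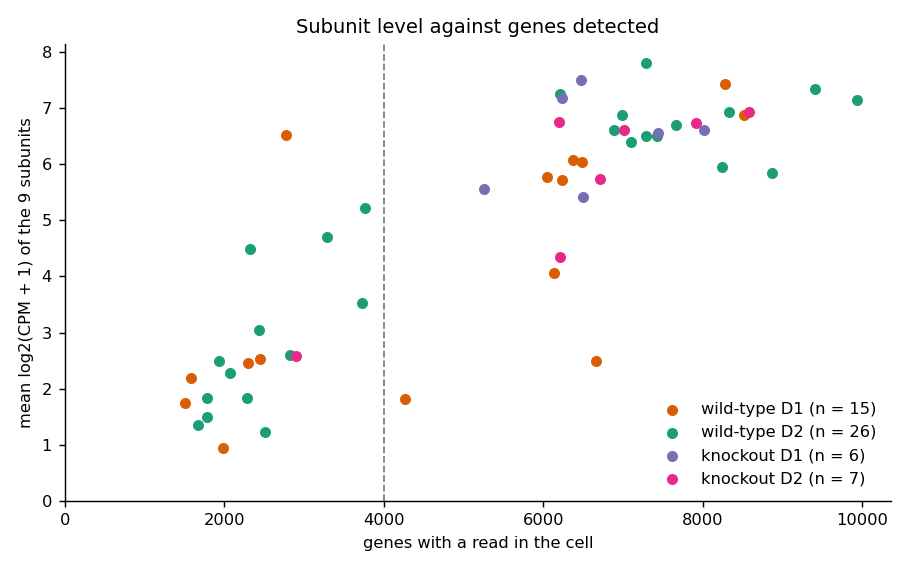
Mean log2(CPM + 1) of the 9 subunits (vertical axis) against the number of genes with a read (horizontal axis) in each cell, by group, with a dashed line at 4000 genes. Right of the line, wild-type D1 cells 1 and 10 lie at 2.50 and 1.82, and all other cells between 4.06 and 7.80.

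The first comparison was within the wild type: log2(CPM + 1) was averaged over the cells of a group, and the D2 mean was taken from the D1 mean. In all cells the difference was 0.19 for Gria1, -0.92 for Gria2, -1.58 for Gria3, 1.5 for Gria4, -1.85 for Grin1, -0.70 for Grin2a, -1.08 for Grin2b, 0.13 for Grin2d and -1 for Grin3a. 1 subunit, Gria4, was at least 1 log2 unit higher in D1 cells and 4 were at least 1 lower, where 9.21% of all measured genes were that much higher and 13.2% that much lower. The median of the 9 was -0.92, beside -0.14 over all 11059 measured genes (those with a mean of 1 CPM or more that were read in 10% or more of the compared cells). Leaving out wild-type D1 cell 14 brought that median to -0.41. Every subunit overlapped between the groups, in this and in the 3 other comparisons.

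In gene-rich cells the wild-type difference was larger: -2.47 for Gria1, -1.98 for Gria2, -3.33 for Gria3, -3.51 for Grin1, -2.65 for Grin2a and -1.65 for Grin2b. Those 6 were at least 1 log2 unit lower in D1 cells, as were 33.4% of all measured genes, and none was that much higher (11.1% of genes). Gria4, at 0.54, and Grin2d, at 0.58, had the other sign. The median of the 9 was -1.98 beside -0.48 over all genes. Here 2 cells weighed heavily. Wild-type D1 cell 1 had 6661 genes, the most counts of any cell and a pyramidal marker level (mean log2(CPM + 1) of 10 genes) of 7.11, yet no read of Gria2, Gria3 or Grin1. Wild-type D1 cell 10 had 101 CPM of Gria2 and at most 8.49 CPM of any other subunit, beside 9141 CPM of microglial and 13691 CPM of oligodendrocyte markers. These cells were singled out after their low subunit levels were seen. Without both, the gene-rich values were -0.93 for Gria1, -0.40 for Gria2, -1.94 for Gria3, -2.62 for Grin1, -1.95 for Grin2a and -0.65 for Grin2b, while Gria4 was at 1.22, Grin2d at 0.30 and Grin3a at 0.11. Then 3 subunits were at least 1 lower and 1 at least 1 higher, and the median of the 9 was -0.65.

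The wild-type difference was not alike at each age, with few cells at any. At the ages with both kinds of cell, the median of the 9 was -2.89 at 29 days (4 and 6 cells), 0.15 at 30 days (3 and 7), 2.08 at 31 days (3 and 3) and -3.37 at 34 days (2 and 2), beside -0.87, -0.13, 1.68 and -0.36 over all genes. The lower level in D1 cells thus did not hold within each age. The D1 cells of 29 days include cell 1, described above, so that age and single cells cannot be told apart. For Grin1 the difference was -7.38 at 29 days but 0.15, 0.54 and 3.26 at the other ages, and without the cells of 29 days it was -0.05 in all. Gria4 was -0.24, 1.87, 5.48 and 0 in the same order.

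In the knockout, D1 cells were compared with wild-type D1 cells. The difference, knockout minus wild type, was 2.40 for Gria1, 3.77 for Gria2, 3.99 for Gria3, 2.93 for Gria4, 3.41 for Grin1, 2.41 for Grin2a, 2.48 for Grin2b, -1.06 for Grin2d and 0.30 for Grin3a. Thus 7 of the 9 were at least 1 log2 unit higher in the knockout, as were 49.6% of all measured genes, and 1 was that much lower, as were 8.02%. The median of the 9 was 2.48 beside 0.98 over 10792 genes. All 6 knockout D1 cells were gene-rich, against 9 of the 15 wild-type D1 cells.

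Among gene-rich D1 cells alone, the knockout difference was 1.83 for Gria1, 2.10 for Gria2, 3.06 for Gria3, 1.54 for Gria4, 2.62 for Grin1, 1.53 for Grin2a, 0.98 for Grin2b, -1.76 for Grin2d and 0.05 for Grin3a. Of these, 6 were at least 1 higher (28.5% of all genes) and 1 at least 1 lower (22.7%), with a median of 1.54 beside 0.14. Without the wild-type D1 cells 1 and 10 described above, Gria3 (1.67) and Grin1 (1.72) were still over 1 higher, while Gria2 was at 0.52, Gria1 at 0.28 and Grin2b at -0.03, and the median was 0.52. In the summed counts of each group, in which deep cells weigh more, the median of the 9 was 0.79. At 31 days, the only age with both, the single knockout cell was above the mean of the 3 wild-type cells in 8 of the subunits, Grin2d being the exception, with a median difference of 2.35 beside -0.69 over all genes. Among all D1 cells of 31 and 32 days, Gria1 was lower in the knockout, at -1.03. The wild-type side of that value was the same 3 cells of 31 days. They include gene-poor cell 11, with 1942 CPM of Gria1.

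In D2 cells the knockout difference turned with the cells used. Over all cells it was 2.13 for Gria1, 1.84 for Gria2, 0.66 for Gria3, 1.28 for Gria4, 0.62 for Grin1, 0.98 for Grin2a, 1.43 for Grin2b, 0.36 for Grin2d and -1.20 for Grin3a. Of the 9, 4 were at least 1 higher, as were 36.4% of all measured genes, and 1 was at least 1 lower, as were 6.91%, and the median was 0.98 beside 0.56 over 11222 genes. In gene-rich cells 8 of the 9 were lower in the knockout: Gria1 by -1.30, Gria2 by -0.19, Gria3 by -0.75, Gria4 by -0.49, Grin1 by -0.86, Grin2a by -0.91, Grin2b by -0.49 and Grin3a by -0.49, with Grin2d at 0.32. None was at least 1 higher (14.2% of genes) and 1 was at least 1 lower (30% of genes). The median of -0.49 lay near that of all genes, -0.39. In all cells, leaving out the gene-poor knockout D2 cell 5 gave a median of 1.87 and Grin1 and Gria3 values of 1.59 and 1.93, and leaving out knockout D2 cell 4 gave a median of 0.57 and a Grin1 value of -0.05. Of the 26 wild-type D2 cells 13 were gene-poor, and of the 7 knockout D2 cells 1 was.

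The knockout D2 cells at 32 days had 2 wild-type D2 cells of that age beside them, of which 1 was gene-poor, and the median difference of the 9 was 1.28 there beside 0.68 over all genes, with Gria2 at -1.39. Whether the knockout difference of the subunits differed between D1 and D2 cells was not tested, because each group is 1 sample.

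Knockout D1 and D2 cells differed most in Gria4. The difference, D1 minus D2, was 0.45 for Gria1, 1.01 for Gria2, 1.75 for Gria3, 3.15 for Gria4, 0.94 for Grin1, 0.72 for Grin2a, -0.03 for Grin2b, -1.28 for Grin2d and 0.50 for Grin3a. Of the 9, 3 were at least 1 higher in D1 cells (32.9% of all genes) and 1 at least 1 lower (21% of genes), with a median of 0.72 beside 0.29. Without the gene-poor knockout D2 cell 5 the median was 0.31, with Gria2 at 0.31 and Gria3 at 0.48, and without knockout D2 cell 4 it was 1.23. In gene-rich cells Gria4 remained 2.57 higher, at 295 ± 313 CPM (SD, n = 6) against 64.4 ± 73.9 CPM (SD, n = 6). Gria4 was the 1 subunit at least 1 higher (27.5% of genes) and Grin2d, at -1.5, the 1 at least 1 lower (26.2%). The others lay between -0.21 (Grin2a) and 0.65 (Gria1). Knockout D1 cell 1 held 51% of the summed Gria4 CPM of its group, and leaving out single cells gave Gria4 differences of 2.54 to 4.51. The knockout groups and both wild-type groups enter several of these comparisons, which are therefore not independent of each other.

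**Figure D5:**
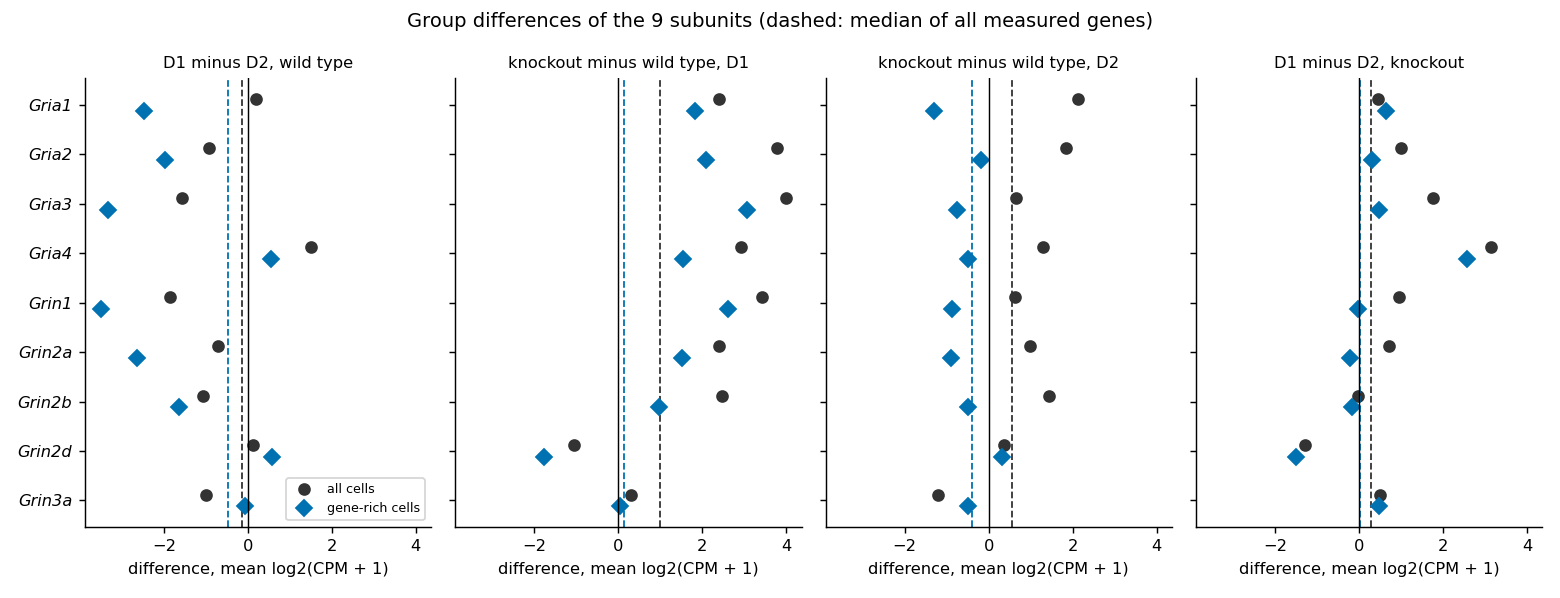
Difference between groups of the mean log2(CPM + 1) (horizontal axis) for the 9 subunits in the 4 comparisons. Circles are all cells and diamonds gene-rich cells, and dashed lines of the same colour mark the median of all measured genes; in the knockout comparison of D2 cells the circles lie right of 0 and the diamonds left of it for 7 of the 9 subunits.

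The other cell types of the cortex left traces in these samples. All pyramidal marker genes of the list of 10 were read in 3 groups, and 9 in knockout D2 cells, with median sums of 2547 to 3233 CPM over the groups, and Slc17a7, the vesicular glutamate transporter of these neurons, was read in 13 of 15, 26 of 26, 6 of 6 and 7 of 7 cells. Astrocyte markers summed to medians of 602 to 1059 CPM and reached 15032 CPM in the gene-poor wild-type D1 cell 9. Microglial sums had medians of 249 to 689 CPM and oligodendrocyte sums of 338 to 1062 CPM. Interneuron sums had medians of 33.5, 167, 409 and 247 CPM in the groups as ordered before, and Slc32a1, the vesicular GABA transporter, was at 0 in all D1 cells of both genotypes. The part of these markers in the subunit differences was not tested.

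Across the 34 gene-rich cells some subunits moved together. The highest Spearman rho of log2(CPM + 1) was 0.66 between Grin1 and Grin2a, followed by 0.63 between Gria2 and Gria3, and the lowest was -0.48 between Gria3 and Grin2d. In the 22 wild-type cells among them the same pairs gave 0.66, 0.57 and -0.49. The cells share groups and may share animals, and Grin1 itself had a rho of 0.57 with the number of genes read, so these values are a description without a test. The genes most like each subunit, among 7031 named genes read in at least 50% of those cells (predicted and mitochondrial genes left out), were Ddx41 for Gria1 (rho 0.70), Nrcam for Gria2 (0.72), Ryr3 for Gria3 (0.69), Kcnma1 for Gria4 (0.67), Ept1 for Grin1 (0.80), Ttc14 for Grin2a (0.69) and Son for Grin2b (0.74). Each rho was picked as the highest among the 7031 genes over 34 cells, and that choice alone raises it. Among these genes, Nrcam is a neuronal adhesion molecule, Ryr3 an intracellular calcium channel and Kcnma1 a potassium channel opened by calcium. Next for each came Frmd6 and Sav1, Unc80 and R3hdm1, Lamp5 and Adam22, Zfp800 and Cask, Lnp and Stag1, Plec and Nvl, and Clec16a and Ank3, in the same order.

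The partners of the receptors were followed in lists of auxiliary and assembly proteins (16 genes), scaffolds (20), signalling and clustering proteins (20) and other receptor, editing and glutamate genes (20). Between wild-type D1 and D2 cells, 1 of 13 measured auxiliary genes was at least 1 log2 unit higher and 1 lower, 0 and 2 of 20 scaffolds, 3 and 5 of 20 signalling genes and 2 and 2 of 17 others, with medians of 0.19, -0.30, -0.26 and -0.64 beside -0.14 over all genes, of which 9.21% were that much higher and 13.2% that much lower. Among the members with the largest difference were Cnih3 (1.59), Shisa7 (-1.30) and Shisa9 (-0.91) among the auxiliary proteins, Nsf (-1.77), Sdcbp (-1.71) and Grip2 (-0.99) among the scaffolds, Nrn1 (2.37) and Nptx2 (1.99) in signalling, and Grin3b (-1.49), Glul (-1.23) and Srr (1.14) among the others. Nsf recycles AMPA receptors by way of Gria2, and Nptx2 is a secreted protein that clusters them. In gene-rich cells 0 of 13, 0 of 20, 2 of 20 and 1 of 17 were at least 1 higher (11.1% of all genes) and 6, 7, 4 and 9 at least 1 lower (33.4%), with medians of -0.77, -0.63, -0.55 and -1.14 beside -0.48.

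Between knockout and wild-type D1 cells, 7 of 13 auxiliary genes, 16 of 20 scaffolds, 16 of 20 signalling genes and 10 of 17 others were at least 1 higher, as were 49.6% of all genes, and 1, 0, 1 and 2 at least 1 lower, as were 8.02%. Their medians were 1.11, 2.10, 1.90 and 1.44 beside 0.98 over all genes. Sacm1l (4.49), Shisa7 (4) and Porcn (2.99) led the auxiliary list, Grip1 (4.78), Grip2 (4.09) and Lin7b (3.51) the scaffolds, and Arc (4.63), Ppp3cb (3.85) and Camk2b (3.81) the signalling genes. Grin3b (3.37) and Adar (2.96) were among the largest of the others. Grip1 and Grip2 bind the tails of Gria2 and Gria3. In gene-rich cells the counts at least 1 higher were 5 of 13, 10 of 20, 7 of 20 and 6 of 18 (28.5% of all genes) and those at least 1 lower 1, 2, 2 and 2 (22.7%), with medians of 0.84, 0.90, 0.78 and 0.51 beside 0.14.

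Between knockout and wild-type D2 cells, 5 of 13 auxiliary genes, 10 of 20 scaffolds, 9 of 20 signalling genes and 7 of 18 others were at least 1 higher (36.4% of all genes), and 2, 1, 2 and 2 at least 1 lower (6.91%), with medians of 0.32, 1.07, 0.85 and 0.64 beside 0.56. Cacng2 (2.25), Shisa9 (1.90) and Shisa7 (-1.75), Dlg1 (3.60), Dlg2 (2.84) and Shank2 (1.95), Ppp1ca (2.84), Arc (-2.61) and Src (-2.15), and Adar (2.40), Glul (-2.05) and Slc7a10 (1.64) differed most in the lists in turn, over all cells. For Adar the mean CPM went the other way, at 97.1 ± 76.3 (SD) in knockout and 111 ± 179 in wild-type cells. It was read in 7 of 7 knockout and 19 of 26 wild-type cells. Cacng2 encodes stargazin, the founding AMPA receptor auxiliary subunit. In gene-rich cells 2 of 15, 1 of 20, 2 of 20 and 1 of 18 were at least 1 higher (14.2% of all genes) and 8, 6, 5 and 8 at least 1 lower (30%). Their medians had the other sign there, at -1.02, -0.29, -0.16 and -0.91 beside -0.39.

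Arc, an activity-induced gene whose protein promotes the removal of AMPA receptors from the synapse, had the largest difference of any listed gene between knockout D1 and D2 cells, at 7.48. It was read in 6 of 6 D1 cells, at 1212 ± 1123 CPM (SD, n = 6), and in 3 of 7 D2 cells, at 38.4 ± 89.1 CPM (SD, n = 7). The auxiliary genes Shisa7 (4.44), Sacm1l (4.36) and Cacng3 (-2.20), the scaffolds Grip2 (4.03), Cask (3.49) and Grip1 (3.07), the signalling genes Src (3.09) and Ephb2 (2.39) and the others Nlgn1 (2.54) and Grid1 (2.20) were among the members of largest difference in their lists. Nlgn1 had the other sign in mean CPM, at 140 ± 155 (SD) in knockout D1 and 186 ± 267 (SD) in knockout D2 cells. No knockout D1 cell lacked Nlgn1 reads, while just 3 of the 7 knockout D2 cells had any. In all, 6 of 13, 11 of 20, 9 of 20 and 9 of 18 were at least 1 higher in D1 cells (32.9% of all genes), and 1, 2, 1 and 4 at least 1 lower (21%), with medians of 0.99, 1.06, 0.65 and 1.00 beside 0.29. In gene-rich cells Arc differed by 7.10, and 4 of 13, 7 of 20, 8 of 20 and 7 of 18 were at least 1 higher (27.5% of all genes) and 2, 2, 3 and 3 at least 1 lower (26.2%), with medians of 0.73, 0.37, 0.53 and 0.57 beside 0.02.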

How the data were processed

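Gene counts were deposited by the authors as whole-number read counts once by gene symbol and once by Ensembl identifier. Trimmomatic, STAR and featureCounts on GRCm38 were named, per the submitters' processing notes. The sources used here give no versions, settings or strand. A normalized signal table was also deposited by the authors, and each cell's values were its counts times 1 factor (0.373 to 51.5). In each table, 2 columns matched no label and were not used. From the counts, CPM and log2(CPM + 1) were computed with a pseudocount of 1; the scale understates differences of low genes. Library size was the total over genes, 260943 to 10673072. Groups were compared by their means over cells, with no test, since animals are not named. Pairs of cells correlated at most at 0.74 (Spearman, over genes), and none held identical values. All 9 subunits are named; of each partner list the 3 measured members of largest difference in all cells are named, and of the genes most like a subunit the first 3. A few list members that this rule names are not reported here. The subunits and lists were chosen with earlier results of these data known. Exons and sequences came from GENCODE vM21 (GRCm38). Alternatives were other pseudocounts (0.1 and 10), edgeR's TMM library sizes, totals without mitochondrial and Rn18s-rs5 counts, the authors' values, Ensembl counts, thinning to 250000 counts, gene-rich cells, summed counts, medians, ages and leaving out cells. No comparison used the 1 knockout D1 cell that did not pass quality control. The procedure was tested on simulated data. They were drawn around 1 mean profile and did not model gene-poor cells or animals, so they do not test the comparisons under those. Python 3.11.15, numpy 2.4.6, pandas 2.3.3, scipy 1.17.1, matplotlib 3.10.9, R 4.3.3 and edgeR 4.0.16 were used.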

Additional observations from a re-analysis of the deposited data

Results flagged for a closer look

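In 27 sets of 4 to 10 cells (each subunit in knockout D1, knockout D2 and gene-rich wild-type D1 cells), 7 held a cell far from the others by Dixon's criterion on log2(CPM + 1). The criterion flags about 1 in 20 sets of normally distributed values. Sets with cells at 0 are not of that kind, so that the 7 cannot be set against that rate. Lowest were Gria4 in knockout D1 cell 6, at 0, Grin1 in knockout D1 cell 5, at 0.54, Gria3 in the gene-poor knockout D2 cell 5, at 0, and Gria2 in gene-rich wild-type D1 cell 1, at 0. Highest were Grin3a in knockout D1 cell 3, at 4.09, in knockout D2 cell 7, at 1.29, and in gene-rich wild-type D1 cell 8, at 4.62. In the first 2 of these the other cells of the group had no Grin3a read, so that a single cell with reads was enough.

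A further knockout D1 cell, which did not pass quality control, had reads in 995 genes. It held 1046 CPM of Grin1, above the level that 3 counts give in it (3.16 CPM) and above the 498 CPM of the highest knockout D1 cell that passed, and 15.8 CPM of Grin2b.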

How the results depend on the processing

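No paired analysis was possible because cells carry no number that is shared between groups. For the median of the 9 differences, 182 alternative values moved by less than the SD between cells. That limit is wide, and many of the 182 leave out only 1 cell. A change of sign was not counted for a main value under 1. The exceptions, both for knockout minus wild type in D1 cells (2.48), were 0.79 in summed counts and 0.52 in gene-rich cells without wild-type D1 cells 1 and 10. Leaving out 1 cell at a time gave -1.15 to -0.41 for wild-type D1 minus D2, 2.09 to 2.92 for the knockout in D1, 0.57 to 1.87 for the knockout in D2 and 0.31 to 1.23 for knockout D1 minus D2; the cells that moved it most were wild-type D1 cell 14 (-0.41) and knockout D2 cells 4 and 5. For the knockout in D2 the median, 0.98 in all cells, was -0.49 in gene-rich cells, -0.94 in summed counts and 0 by medians over cells. These values are counted among the 182, although the sign turned. Among subunits with a difference of at least 1, 15 alternative values changed sign. For the knockout in D2, gene-rich cells gave Gria1 -1.30, Gria2 -0.19, Gria4 -0.49 and Grin2b -0.49, summed counts gave Gria1 -0.32, Gria2 -0.19, Gria4 -0.0308 and Grin2b -0.95, and medians over cells Grin2b -0.0025. For the knockout in D1, Gria1 was -1.03 at 31 and 32 days only, and Grin2b -0.0253 in gene-rich cells without wild-type D1 cells 1 and 10. Between knockout D1 and D2 cells Gria2 was -0.20 by medians. For wild-type D1 minus D2, Grin3a in gene-rich cells was 0.0057 without cell 1 or cell 10 and 0.11 without both. The cause was not tested. The removal of cells 1 and 10, the limit of 10 CPM for detection and the longest transcript in the make-up were chosen after seeing the data. Depth limits the rare subunits: Grin2d and Grin3a lack reads in most cells, and zeros in gene-poor cells do not show absence.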
